A study of Homo sapiens with 24 samples.

Results

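H209 is an established human small-cell lung cancer line that grows with a neuroendocrine expression programme, and the data described here are its transcriptional response to lurbinectedin. Cells were kept in RPMI-1640 with 10% fetal bovine serum and exposed for 24 h to 0.1 nM lurbinectedin or to its vehicle, DMSO. The comparison uses 6 of the 24 libraries of the series, namely 3 H209 Lurbi and 3 H209 DMSO libraries, which the design text gives as biological triplicates. It covers 14421 genes. The other 3 lines, H187, H82 and SHP-77, were treated in the same way with 3 libraries per group. By the submitters' classes, which rest on a LIM homeodomain transcription factor, H209 and H187 are ISL1 high, and the ISL1 low lines are SHP-77 and H82. The labels name no engineered allele and no agent other than lurbinectedin and DMSO, and each group is a single cell line in culture.

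Lurbinectedin attaches to guanine bases from the DNA minor groove, and it is known to stall elongating RNA polymerase II and to cause DNA damage. Cells under several kinds of stress phosphorylate the translation factor eIF2alpha, after which the transcription factor ATF4 is translated and induces genes of amino acid supply, feedback control and cell death. This programme is the integrated stress response, and its bZIP factors (ATF3, CEBPB, DDIT3 and others) bind DNA as pairs. In small-cell lung cancer the drug is used in patients whose disease has returned after platinum chemotherapy.

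Total counts in the 6 H209 libraries ran from 24226553 to 30711318, so that 1 CPM (counts scaled to a common library size) stood for 24 to 31 reads. The first principal component of the 500 most variable genes held 72.0% of the variance and separated all 3 treated from all 3 control libraries. The second held 9.61% and set DMSO replicate 3 apart from the other 2 control libraries. Of the 8 neuroendocrine markers checked, 7 were listed, and their summed level was 2322 to 2480 CPM under DMSO and 2347 to 2373 CPM under lurbinectedin, whereas CHGA was not listed. Markers of other cell types were low: 2 of 6 leukocyte markers were listed, with a summed level of 1.94 to 2.22 CPM under DMSO and 3.04 to 3.58 CPM under lurbinectedin, and PTPRC, CD3E and LYZ were not listed. Of 6 non-neuroendocrine markers, 2 were listed (1.70 to 2.72 against 2.53 to 3.29 CPM), while YAP1, AXL, CD44 and MYC were not. For 6 fibroblast markers 1 was listed (1.06 to 1.66 against 0.651 to 1.11 CPM), and for 4 endothelial markers 2 were listed (3.48 to 4.56 against 4.30 to 5.17 CPM). No erythroid marker was listed. In bulk RNA, a change in the number of cells of a kind cannot be told apart from a change in RNA per cell.

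Lurbinectedin changed the RNA level of 6513 of 14421 genes in H209 (45.2%; edgeR quasi-likelihood test, Benjamini-Hochberg adjusted p under 0.05), with 3273 higher (22.7%) and 3240 lower (22.5%). Library scaling (TMM) places the bulk of genes near 0, so higher and lower are relative to it. A change shared by most genes would not be seen. The corresponding counts, each line tested alone by the same model, were 3486 of 14023 in H187 (24.9%), 737 of 14190 in SHP-77 (5.19%) and 395 of 13516 in H82 (2.92%). H209 thus had 1.87 times as many changed genes as H187, the next line. The number of calls also depends on replicate spread, and the spread was smallest in H209: the biological coefficient of variation was 0.0308 there, against 0.0428 in H187, 0.0408 in H82 and 0.0332 in SHP-77. The median absolute log2 fold change, which needs no threshold but also grows with replicate noise, gave the same order of the first 2 lines. It was 0.143 in H209, 0.114 in H187, 0.070 in H82 and 0.061 in SHP-77. When the difference between responses was itself tested, 1351 of 13042 genes differed between H209 and H187 (10.4%), 3342 of 12405 between H209 and H82 (26.9%), and 3650 of 12872 between H209 and SHP-77 (28.4%).

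At a change of at least 2-fold past the threshold, 121 genes were raised (0.839%) and 110 were lowered (0.763%) in H209. The same rule gave 24 raised and 90 lowered genes in H187 (0.171% and 0.642%), 4 and 4 in H82 (0.0296% each), and 5 and 8 in SHP-77 (0.0352% and 0.0564%). The H209 sets were chosen by the contrast itself, so their values in H209 are a description. Just inside the limit of a log2 fold change of 1 stood RARG, NUPR1, TEX14 and PLA2G4C, from 1.009 down to 1.000, and just outside it RHOB, NUAK1, ADM and ANXA9, from 0.999 down to 0.992. Of the 121 raised genes 118, and of the 110 lowered genes 107, had no overlap between treated and control libraries, as had 7508 of all 14421 genes (52.1%). Among all genes called higher and all called lower, 94.0% and 94.3% had none. The 20 largest rises and 15 largest falls of well expressed protein-coding genes were picked from genes without overlap. Their separation below follows from that choice. When each of the 6 libraries was left out in turn, 109 of the 121 raised genes passed the threshold in all 6 fits and 87 also stayed at 2-fold or more.

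**Figure D1:**
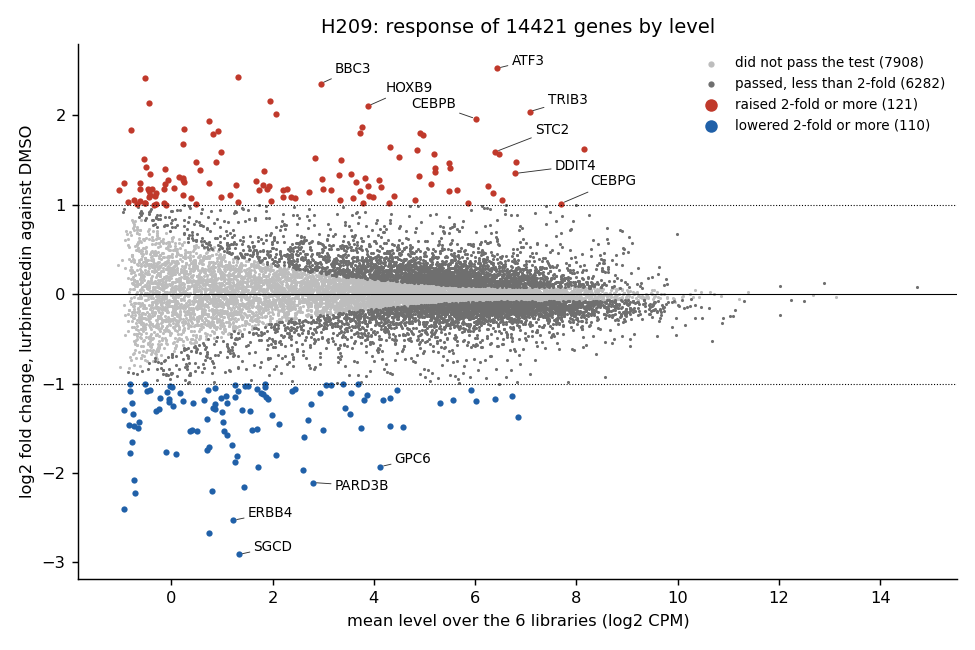
Each point is 1 of the 14421 genes in H209, with the mean level over the 6 libraries (log2 CPM) on the x axis and the log2 fold change, lurbinectedin over DMSO, on the y axis. The 121 genes raised and the 110 genes lowered 2-fold or more are coloured, and ATF3 lies highest among the well expressed genes at 2.53.

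The 2 sets differed in kind. The 121 raised genes were mostly short: their median span from first to last exon was 8.71 kb against 27.2 kb for all genes tested, and 63 of them (52.1%) spanned under 10 kb, as did 25.2% of all genes. The 110 lowered genes had a median span of 573.7 kb, and 81 of them (73.6%) spanned 300 kb or more, against 3.56% of all genes. Transcript GC content ran the other way, with a median of 54.7% in the raised and 43.3% in the lowered set, against 48.3% over all genes. A total of 50 of the 121 raised genes stood under 1 CPM in DMSO, against 1018 of all 14421 genes and 113 of the 3273 called higher. No listed gene had a highest count under 16, so a gene far under 1 CPM in DMSO was listed only if its treated libraries were higher. The number of raised genes at such levels is thus partly set by which genes were listed. By type, 105 of the raised genes were protein-coding and 9 were long non-coding RNAs.

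The raised genes were sorted by known function into 12 groups, a sorting made after their values were seen. The largest named groups were signalling, cytoskeleton and trafficking genes (17), further transcription and chromatin regulators (16), non-coding RNAs and pseudogenes (16), secreted factors and surface ligands (13), channels, transport and metabolism (10), bZIP transcription factors (9) and stress regulators (9). Among the raised genes, levels per kilobase of exon under lurbinectedin were highest for DDIT4 (90.4 CPM per kb, from 35.5 under DMSO), SNHG1 (81.3 from 39.3), TRIB3 (74.8 from 18.2), CEBPG (71.7 from 35.5) and ATF3 (57.6 from 10.0). DDIT4 inhibits the growth kinase mTORC1, and SNHG1 is the host transcript of several small nucleolar RNAs.

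ATF3, a bZIP repressor and activator induced by many stresses (chromosome 1, 212565334 to 212620777, hg38), had the largest rise among well expressed protein-coding genes. It stood at 25.7, 24.7 and 26.0 CPM in the DMSO libraries and at 145, 151 and 143 CPM in the lurbinectedin libraries. All 3 treated libraries lay far above all 3 controls, a 5.76-fold rise (log2 fold change 2.53 ± 0.04 SE, adjusted p = 2.54e-40). CEBPB (chromosome 20, 50190583 to 50192691), a C/EBP factor of inflammation and metabolism, went from 26.2, 23.2 and 30.02 CPM to 106, 103 and 99.0 CPM. Its groups did not overlap (log2 1.96 ± 0.05, adjusted p = 3.62e-32). An antisense transcript, CEBPB-AS1, overlaps it and rose by 1.22. DDIT3, which encodes the pro-apoptotic factor CHOP, rose from 14.1, 14.0 and 14.3 CPM to 44.2, 42.0 and 43.5 CPM (log2 1.61 ± 0.06, adjusted p = 3.13e-27). The overlapping MARS, a methionyl-tRNA synthetase gene on the opposite strand, rose by 0.45 and the microRNA gene MIR616 within DDIT3 by 1.30. Whether the counting used strand is not given in the sources used here, so reads of overlapping genes cannot be told apart. The other raised bZIP genes were FOSB (log2 1.53), JDP2 (1.34), FOSL2 (1.30), MAFA (1.09), CREB5 (1.08) and CEBPG (1.01). CEBPG, a partner of ATF4, rose from 136, 141 and 135 CPM to 289, 274 and 268 CPM.

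ATF4 itself rose less, from 288, 278 and 269 CPM to 414, 411 and 405 CPM (log2 0.56 ± 0.03, adjusted p = 3.82e-20), with no overlap. Of 16 listed regulators of the integrated stress response, 15 were measured, 13 rose, none fell, and 8 were raised 2-fold or more; the median log2 fold change was 1.00, against 0.00 over all genes. Counts of list members here and in what follows stand beside the 22.7% of all genes that rose and the 22.5% that fell. The members that did not pass were the eIF2alpha kinases EIF2AK4 (-0.10) and EIF2AK1 (-0.02), named after their values were seen. TRIB3, a pseudokinase that restrains ATF4 and AKT, stood at 53.3, 50.3 and 54.1 CPM under DMSO and at 217, 216 and 216 CPM under lurbinectedin. That is a 4.12-fold rise with replicates within a few CPM of each other (log2 2.04 ± 0.03, adjusted p = 4.92e-39). SESN2, a leucine sensor upstream of mTORC1, went from 14.1, 14.1 and 13.9 CPM to 47.7, 47.0 and 49.3 CPM (log2 1.78 ± 0.05). PPP1R15A, the phosphatase subunit that reverses eIF2alpha phosphorylation, went from 29.8, 31.8 and 29.9 CPM to 67.3, 71.1 and 67.7 CPM (log2 1.17). Neither gene's groups overlapped. GADD45B, a stress signalling adaptor, rose by 1.65, DDIT4 by 1.35, and TRIB1, a relative of TRIB3, by 1.09. NUPR1, a stress-induced chromatin protein, rose by 1.00, but it lost the call with DESeq2 (adjusted p = 0.0659) and without DMSO replicate 1 (0.0747) or Lurbi replicate 2 (0.123).

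**Figure D2:**
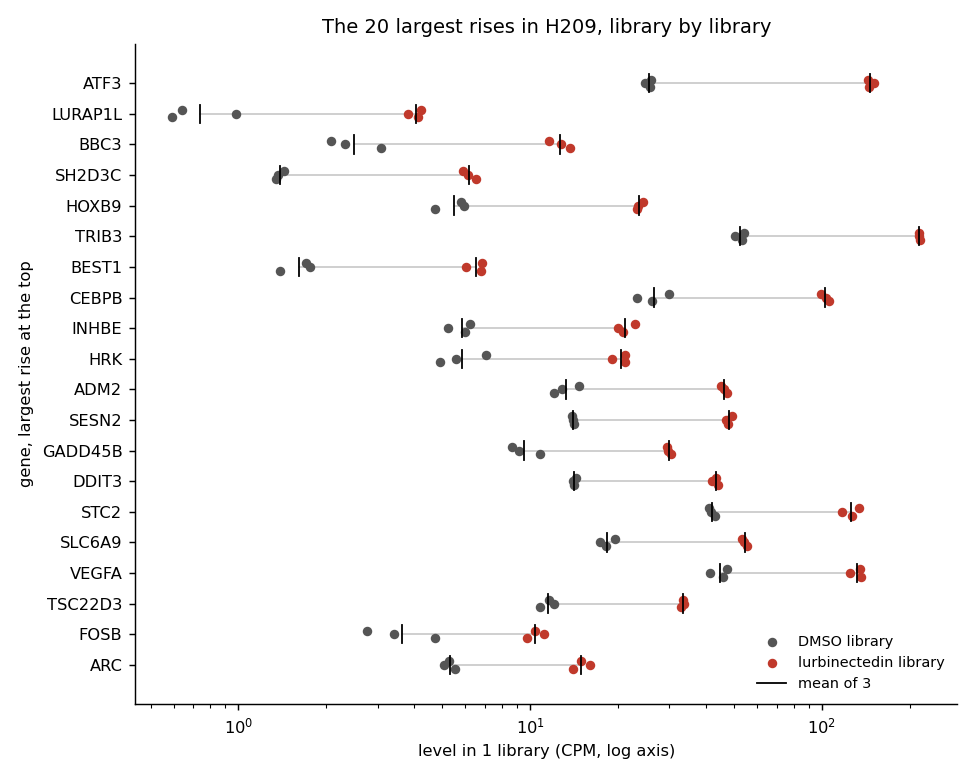
Levels in CPM (log axis) of the 20 protein-coding genes with the largest rises in H209 among those whose log2 CPM averaged 1 or more, with 1 point for each of the 3 DMSO and 3 lurbinectedin libraries. The genes were also picked for having no overlap between groups, so all 3 treated libraries lie above all 3 controls by that choice. The rises run from ATF3 (log2 fold change 2.53) to ARC (1.50).

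Genes that ATF4 is known to induce rose together with their regulators. Of 31 such targets 28 rose, 1 fell (ALDH18A1, -0.11) and 10 were raised 2-fold or more, with a median of 0.89. CHAC1, which degrades glutathione, went from 23.5, 24.7 and 22.8 CPM to 68.4, 63.3 and 64.7 CPM (log2 1.47 ± 0.05). SLC6A9, a glycine transporter, went from 18.2, 17.3 and 19.5 CPM to 55.5, 54.1 and 53.3 CPM (1.57 ± 0.05). Both genes separated the groups completely. In serine and folate metabolism, PSAT1 rose from 115, 112 and 110 CPM to 229, 223 and 218 CPM (log2 0.99), PHGDH by 0.73, and the mitochondrial folate enzyme ALDH1L2 from 19.3, 19.6 and 22.9 CPM to 54.1, 53.8 and 51.1 CPM (1.36). The branched-chain aminotransferase BCAT1 rose by 1.23 (19.8, 21.5 and 20.7 CPM to 49.0, 51.2 and 46.1 CPM), the neutral amino acid transporter SLC43A1 by 1.10, and the arginase ARG2 by 1.02. The asparagine synthetase pseudogene ASNSP1 rose by 1.27 and ASNS by 0.88, and reads of such near-identical copies may be assigned to either.

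Amino acid import and tRNA charging followed at lower amplitude. Of 18 listed amino acid transporters 16 were measured, 10 rose and 2 fell (median 0.58). SLC7A11, the cystine importer, went from 64.5, 66.2 and 71.1 CPM to 133, 121 and 123 CPM (log2 0.90). Its partner chain SLC3A2 rose by 0.82, SLC38A2 by 0.74 and SLC7A5 by 0.68. Of 19 measured cytosolic tRNA synthetases 13 rose, none of them 2-fold, and 1 fell (QARS, -0.12), with a median of 0.25. TARS, which charges threonine tRNA, went from 418, 408 and 401 CPM to 652, 635 and 630 CPM (log2 0.64 ± 0.03), and SARS, AARS, YARS and GARS rose by 0.72, 0.56, 0.52 and 0.50. These transcripts were abundant, and the treated libraries lay above the controls by a margin many times the replicate spread.

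The sequence through which ATF4 and C/EBP factors are known to bind, the C/EBP-ATF response element, was looked for on both strands as its letters TTGCATCA in RefSeq promoters (GRCh38.p14, 250 bases before to 50 after the annotated start). Of the 14421 genes 11137 had a promoter entry, and 50 of these (0.449%) held the element. It was found in 3 of 80 raised genes with an entry (3.75%), in 1 of 13 regulators and 2 of 22 targets of the stress response, and in 5 of 12 tRNA synthetases (41.7%). The 2 targets, CHAC1 and FGF21, are also among the 3 raised genes, and the regulator was PPP1R15B, which rose by 0.17. The following promoters hold the element, those of 3 raised genes and of 2 synthetases, BCAT1 and the synthetases being chosen after their values were seen. The element is in capitals, and position is counted from the start site. In BCAT1 the capitals show its reverse complement.
CHAC1, chr15:40953251-40953280, plus strand, element at -209: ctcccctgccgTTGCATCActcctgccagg
FGF21, chr19:48755434-48755513, plus strand, element at -54: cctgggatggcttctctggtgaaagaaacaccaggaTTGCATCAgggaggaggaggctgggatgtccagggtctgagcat
BCAT1, chr12:24949131-24949160, minus strand, element at -48: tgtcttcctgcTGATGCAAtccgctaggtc
AARS, chr16:70289675-70289704, minus strand, element at -187: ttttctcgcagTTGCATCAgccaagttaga
IARS, chr9:92293698-92293727, minus strand, element at -13: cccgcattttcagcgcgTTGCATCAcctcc
A match is a run of letters and not a measured binding site. The cAMP response element TGACGTCA, which reads the same on both strands, stood in 3.28% of all promoters and in 2 of the 80 raised ones (2.5%).

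Another group of raised genes encodes secreted proteins and surface ligands (13 genes, log2 1.03 to 2.14). VEGFA, the main angiogenic growth factor, went from 45.8, 41.3 and 47.1 CPM to 136, 125 and 135 CPM (log2 1.56 ± 0.04, adjusted p = 8.93e-32). STC2, a stanniocalcin hormone, went from 43.1, 41.5 and 40.9 CPM to 126, 117 and 134 CPM (1.59 ± 0.04). For both genes every treated library exceeded every control by more than 2-fold. INHBE, an activin subunit, went from 5.98, 5.25 and 6.24 CPM to 20.7, 20.0 and 22.8 CPM (1.87 ± 0.08). ADM2, an adrenomedullin-family peptide, went from 12.1, 12.9 and 14.7 CPM to 47.2, 46.4 and 45.1 CPM (1.81 ± 0.06). The metabolic stress hormones GDF15 (log2 1.29) and FGF21 (1.18) also rose, as did ULBP1 (1.21), a ligand of the natural killer cell receptor NKG2D that went from 10.1, 8.47 and 7.94 CPM to 20.4, 18.6 and 22.0 CPM. CXCL8, a neutrophil chemokine, rose from a low level (0.396, 0.782 and 0.227 CPM to 1.47, 2.13 and 1.72 CPM; log2 1.85), and so did WNT16 (1.93) and HBEGF (1.26).

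Pro-apoptotic BH3-only genes formed a small group with large rises. BBC3, which encodes PUMA, went from 3.09, 2.31 and 2.08 CPM to 13.7, 12.7 and 11.6 CPM, a 5.11-fold rise (log2 2.35 ± 0.12, adjusted p = 3.28e-21). HRK, whose product binds BCL-2 and BCL-XL, went from 4.91, 5.57 and 7.07 CPM to 21.1, 19.1 and 21.1 CPM (1.81 ± 0.09, adjusted p = 1.56e-21). PMAIP1, which encodes NOXA, an antagonist of MCL-1, went from 9.30, 8.08 and 7.26 CPM to 18.6, 18.7 and 17.4 CPM (1.15). In all 3 genes the lowest treated library stood above the highest control. Of the 8 BH3-only genes measured 6 rose, BMF and BAD by 0.28 and 0.15, while BID (-0.03) and BIK (0.15) did not pass. The survival genes BCL2 and BCL2L1 fell by 0.23 and 0.13 on the log2 scale, and MCL1 (0.07) and BCL2L2 (0.02) did not pass. Among the effectors BAK1 and BOK rose by 0.16 and 0.23 and BAX fell by 0.11. The calls of BAD, BAK1 and BAX were lost without DMSO replicate 2 (adjusted p = 0.154, 0.0526 and 0.0623), that of BAD also without Lurbi replicate 2 (0.0675), and that of BAX without DMSO replicate 1 (0.0812) or Lurbi replicate 3 (0.141). BAX also lost the call with DESeq2 (0.0655) and BAD with the GC correction (0.310).

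Of 25 measured targets of the tumour suppressor p53, 13 rose and 4 fell (median 0.17), beside 22.7% and 22.5% of all genes. Of these targets 3 were raised 2-fold or more, and the largest rise was that of BBC3 (2.35). CDKN1A, the p21 inhibitor of cyclin-dependent kinases, went from 50.8, 49.0 and 52.2 CPM to 98.9, 101 and 95.8 CPM (log2 0.96 ± 0.04, adjusted p = 2.19e-25), and AEN, an exonuclease, rose by 0.56. MDM2 was at -0.02 and did not pass, and BTG2 fell by 0.44 on the log2 scale. MDM2 was named after its value was seen.

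Immediate early and other short-lived transcripts were higher as well: 32 of 39 measured rose, 2 fell and 7 were raised 2-fold or more (median 0.58). The lists share members, so their counts are not separate. ATF3 is in this list and among the stress response regulators, and BTG2 is in this list and among the p53 targets. BBC3 is among the BH3-only genes and the p53 targets. FOSB went from 4.71, 3.42 and 2.76 CPM to 9.74, 11.1 and 10.4 CPM (log2 1.53 ± 0.12). ARC, a neuronal activity gene, went from 5.54, 5.08 and 5.26 CPM to 14.0, 16.0 and 15.0 CPM (1.50 ± 0.09). Both genes' groups were separate. NPAS4, another activity-dependent factor, rose by 1.14, EGR1 by 1.02, RHOB by 1.00 and KLF10, a TGF-beta-induced repressor, by 1.13. Of 16 measured NF-kB targets 12 rose and none fell (median 0.30). They included TNFAIP3 (1.67), a ubiquitin-editing inhibitor of NF-kB that stood under 1 CPM in every DMSO library, RELB (1.21), a subunit of NF-kB, RIPK2 (0.85) and NFKBIA (0.34). Of 24 interferon-stimulated genes 10 rose and 1 fell (median 0.23), with IRF7 at 1.28, ISG20 at 1.11 and IRF1 at 0.92 among them. Outside that list, APOL6, an apolipoprotein L gene, rose by 1.25 and the cytidine deaminase gene APOBEC3B by 1.59.

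Among other transcription regulators, HOXB9, a posterior HOX gene, rose 4.30-fold (log2 2.10 ± 0.08), from 4.71, 5.93 and 5.78 CPM to 23.2, 23.4 and 24.4 CPM. Of 30 measured HOX genes 9 rose and 3 fell, and the median was 0.11. TSC22D3, the glucocorticoid-induced leucine zipper, went from 10.8, 12.1 and 11.6 CPM to 33.0, 33.8 and 33.5 CPM (1.53 ± 0.06). Neither gene's groups overlapped. AKNA, a centrosomal AT-hook protein, rose by 1.41, PAX9 by 1.02, and the retinoic acid receptor RARG by 1.01. In the Notch pathway 4 of 19 measured genes rose and 8 fell (5 without DMSO replicate 3 or Lurbi replicate 1); the Notch-responsive repressors HEY2 (1.04) and HES1 (0.89) were among those that rose. SH2D3C, an adaptor of integrin signalling, went from 1.35, 1.37 and 1.44 CPM to 6.51, 6.11 and 5.91 CPM (2.16 ± 0.15), and LURAP1L, a little-studied gene, from 0.594, 0.977 and 0.643 CPM to 4.14, 3.81 and 4.22 CPM (2.43 ± 0.20). In both genes the treated libraries lay above all controls.

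A few rises need their neighbours beside them. BEST1, a chloride channel of retinal pigment epithelium, rose by 2.01 from 1.39, 1.76 and 1.70 CPM to 6.77, 6.03 and 6.82 CPM, and it overlaps FTH1 on the opposite strand, a ferritin gene at 929 CPM that fell by 0.09 on the log2 scale. CHRNE, an acetylcholine receptor subunit, rose by 2.41 from 0.238, 0.195 and 0.151 CPM to 0.944, 1.35 and 0.911 CPM, and it overlaps C17orf107 (1.17) and MINK1 (-0.04, not past the threshold). With 24 to 31 reads per CPM, its DMSO level rests on a few reads. CHRNE was listed only through its treated libraries, since no listed gene had a highest count under 16. Other raised pairs lay side by side: FAM71A lies 3.669 kb from ATF3, IZUMO1 lies 8.649 kb from FGF21, and UNC5B (1.16) overlaps UNC5B-AS1 (1.35). The part of shared reads or of transcription between neighbours in these rises was not tested. The ribosomal precursor locus RNA45SN3 stood at 35.7, 21.0 and 363 CPM under DMSO and 566, 455 and 266 CPM under lurbinectedin, and RNA45SN2 at 27.2, 21.1 and 131 against 190, 184 and 120 CPM. DMSO replicate 3 stood apart from the other controls in both, and the groups overlapped. Their log2 fold changes were 1.62 ± 0.38 and 1.47 ± 0.25, and 3.94 and 2.78 without that library. DESeq2 did not call them (adjusted p = 0.295 and 0.161), and these loci are near-identical copies in libraries depleted of ribosomal RNA.

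The genes lowered 2-fold or more included very long genes of cell adhesion and signalling. SGCD, a sarcoglycan (chromosome 5, 156326757 to 156767787), went from 4.83, 4.53 and 3.78 CPM to 0.554, 0.533 and 0.641 CPM, a 7.53-fold fall (log2 -2.91 ± 0.21, adjusted p = 4.52e-16). ERBB4, a receptor tyrosine kinase of neuregulins that spans 1162.91 kb, went from 4.59, 3.88 and 3.25 CPM to 0.651, 0.492 and 0.844 CPM (-2.53 ± 0.21). GPC6, a glypican of 1181.21 kb, went from 27.0, 26.4 and 29.8 CPM to 7.72, 7.71 and 6.41 CPM (-1.93 ± 0.08, adjusted p = 4.47e-25). The 3 treated libraries lay below all controls in each. PARD3B, a polarity protein gene, fell from 10.9, 10.9 and 12.0 CPM to 2.34, 2.58 and 2.90 CPM (-2.11), and the phosphatase PTPRG from 9.66, 9.87 and 9.15 CPM to 2.703, 1.72 and 2.77 CPM (-1.97). Among protein-coding genes whose log2 CPM averaged 1 or more, the limit for the falls named here, the others of the 15 largest were those of LINGO2 (-2.15), NPAS3 (-1.94), CALN1 (-1.88), CPQ (-1.81), CADM2 (-1.80), LSAMP (-1.68), SLC39A11 (-1.60), LHFPL3 (-1.58), STARD13 (-1.54) and MSRA (-1.52). The shortest gene among these 15 was MSRA, at 374.62 kb.

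The median change was near 0 in genes up to 100 kb and lower in each longer class. Library scaling places the bulk of genes near 0, so only the differences between classes are informative. Among 1180 genes under 3 kb the median log2 fold change was 0.02, with 18.3% higher and 11.4% lower, and it stayed between 0.01 and 0.05 up to 100 kb. In the 1951 genes of 100 to 300 kb it was -0.10, with 39.9% lower. It was -0.39 in 385 genes of 300 to 600 kb (77.7% lower), -0.78 in 96 genes of 600 to 1000 kb (87.5% lower) and -1.16 in 33 genes of 1000 kb or more (81.8% lower, none higher). Of 514 genes of 300 kb or more, 13 rose. CREB5, a bZIP factor of 526.57 kb, was the single long gene raised 2-fold, from 3.37, 3.62 and 3.29 CPM to 7.65, 6.76 and 7.22 CPM. PPARGC1A, a coactivator of mitochondrial biogenesis of 680.81 kb, rose by 0.95, and BACH2, FOXP2 and POLA1 by 0.83, 0.55 and 0.28. At the other end, 14 genes under 100 kb were lowered 2-fold or more. They included GPR4, a proton-sensing receptor of 12.44 kb (2.22, 1.92 and 1.93 CPM to 0.814, 0.820 and 0.473 CPM; -1.53), and the helicase PIF1 (11.9, 14.3 and 15.6 CPM to 6.55, 6.39 and 7.87 CPM; -1.002). The genes of this paragraph were named after their values were seen.

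**Figure D3:**
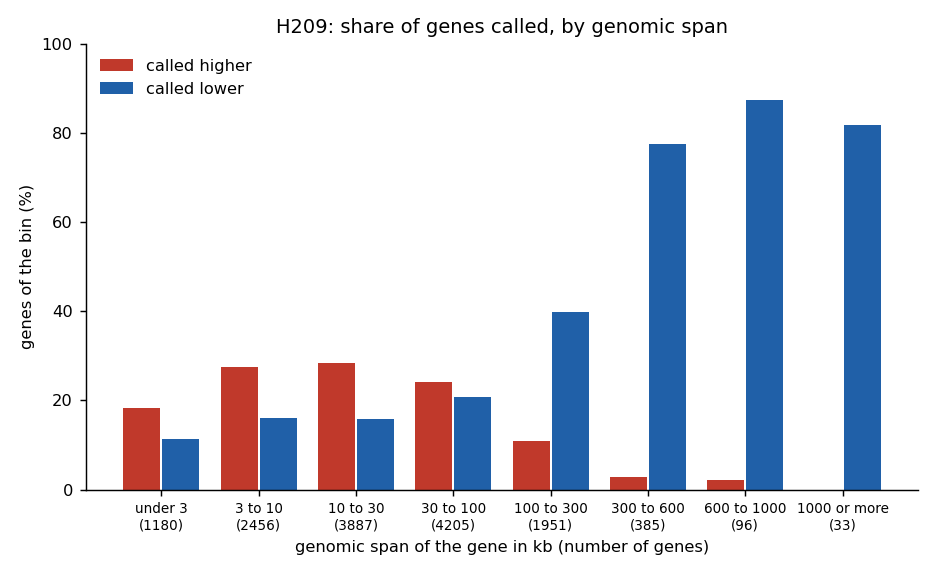
Bars give the percent of genes called higher and called lower in H209 (y axis) in 8 classes of genomic span in kb (x axis, number of genes in parentheses). Called lower were 11.4% of genes under 3 kb, 39.9% at 100 to 300 kb and 81.8% at 1000 kb or more, where none was higher.

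Among 51 long neuronal adhesion and synaptic genes on the list, 38 were measured; 34 fell, none rose, 22 were lowered 2-fold or more and the median was -1.19. This list was drawn up for long genes, so its direction adds nothing independent to the counts by span. Of 13 fragile-site genes, which are long genes in regions prone to breakage, 11 fell and none rose (median -0.93). Of 26 ion channel genes 14 fell and 1 rose (median -0.28).

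Cell-cycle genes moved in opposite directions by phase. Of 48 DNA replication and E2F target genes 47 rose and none fell, with a median log2 fold change of 0.35; GINS2 (0.04) did not pass and was named after its value was seen. E2F2, an activator of S-phase genes, went from 78.0, 80.9 and 78.2 CPM to 145, 148 and 146 CPM (log2 0.89 ± 0.03, adjusted p = 2.21e-26). CDT1, the replication licensing factor, went from 138, 135 and 148 CPM to 251, 252 and 242 CPM (0.82). DTL, which targets CDT1 for degradation, went from 151, 147 and 146 CPM to 272, 271 and 272 CPM (0.87). In each of these genes the groups were far apart relative to the replicates. E2F7 rose by 0.76 and the ribonucleotide reductase subunit RRM2 by 0.57. Of 39 replication-dependent histone genes 30 rose and 4 fell (median 0.19), and HIST1H2AC rose by 0.50.

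Mitotic genes fell: 43 of 44 were lower and none was higher, with a median of -0.41, and FOXM1 (-0.00), a transcription factor of this programme named after its value was seen, did not pass. CCNB1, the mitotic cyclin B1, went from 131, 128 and 126 CPM to 66.8, 67.0 and 69.2 CPM (log2 -0.92 ± 0.03, adjusted p = 3.38e-26). PLK1, a kinase of mitotic entry, went from 176, 176 and 176 CPM to 89.8, 99.8 and 94.9 CPM (-0.89). KIF20A, a kinesin of cytokinesis, went from 138, 135 and 133 CPM to 74.4, 75.3 and 75.2 CPM (-0.85). No treated library reached a control level in these 3 genes. The kinetochore genes CENPA, BUB1 and CENPF fell by 0.79, 0.74 and 0.67 on the log2 scale. The cell cycle homology region, a promoter element of mitotic genes read here as TTTGAA on either strand, stood in 26 of 38 mitotic promoters (68.4%), in 1094 of all 11137 (9.82%) and in 2 of 41 replication promoters. The E2F site TTTCCCGC stood in 11 of 41 replication promoters (26.8%), in 279 of all (2.5%) and in 1 of 38 mitotic ones. Examples of each are shown, with the motif in capitals. They were chosen after their values were seen. PIF1 is not one of the mitotic promoters counted but comes from the genes lowered 2-fold or more. In that set TTTGAA stood in 14 of 85 promoters (16.5%). In CDT1 and PCNA, a sliding clamp of replication, the capitals are the reverse complement.
PLK1, chr16:23678849-23678878, plus strand, TTTGAA at -29: ccagcgccgcgTTTGAAttcggggaggagc
CENPA, chr2:26786026-26786055, plus strand, TTTGAA at -18: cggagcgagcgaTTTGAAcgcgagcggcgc
PIF1, chr15:64825649-64825678, minus strand, TTTGAA at -20: tgcctctagcaTTTGAAaaatttctagttt
CDT1, chr16:88803743-88803772, plus strand, GCGGGAAA at -35: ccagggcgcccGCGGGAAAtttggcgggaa
PCNA, chr20:5126638-5126717, minus strand, GCGGGAAA at -59: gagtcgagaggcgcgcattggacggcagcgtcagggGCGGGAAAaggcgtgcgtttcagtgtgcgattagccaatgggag
The CCAAT box, searched as CCAAT on both strands and able to share end bases with either motif, was found in 32 of 38 mitotic promoters (84.2%), 24 of 41 replication promoters (58.5%) and 36.9% of all.

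DNA repair lists differed. Of 28 homologous recombination genes 20 rose and 2 fell (median 0.25). EXO1, a resection nuclease, went from 100, 105 and 97.4 CPM to 194, 190 and 184 CPM (log2 0.91), and BRCA2 and BRCA1 rose by 0.72 and 0.52. Of 19 Fanconi anaemia genes 11 rose and 1 fell (median 0.13), and of 25 nucleotide excision repair genes 8 rose and 4 fell (median 0.02), with the damage sensor DDB2 at 0.44. The excision repair counts lie near the shares over all genes, 22.7% higher and 22.5% lower, and the count of higher genes was 5 without DMSO replicate 3 or Lurbi replicate 2. Of 23 checkpoint genes 12 rose and 3 fell, led by the CDK1-inhibiting kinase PKMYT1 (0.99) and the phosphatase CDC25A (0.51).

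Chaperones fell while stress regulators rose. Of 23 heat shock and chaperone genes 18 fell and 2 rose (median -0.23). HSPA8, the constitutive HSP70, went from 1974, 1920 and 1853 CPM to 1314, 1331 and 1357 CPM (log2 -0.52 ± 0.02, adjusted p = 1.20e-23), so every treated library lay below every control. DNAJA1, HSP90AA1 and HSP90AB1 fell by 0.35, 0.32 and 0.27 on the log2 scale, and HSPA9 (0.38) and HSPB8 (0.57) rose. The heat shock element, searched on both strands, stood in 4 of 22 chaperone promoters (18.2%) and in 31 of all (0.278%). It is shown for HSPA8, a promoter chosen after its values were seen.
HSPA8, chr11:123062173-123062202, minus strand, element at -55: gggcgggccccTTCTGGAAGGTTCtaagat
The unfolded protein response was split, with 4 of 26 genes higher and 16 lower (median -0.14). ERN1, the endoplasmic reticulum stress sensor IRE1alpha, went from 24.9, 24.3 and 25.1 CPM to 68.0, 62.6 and 67.3 CPM (log2 1.42 ± 0.05, adjusted p = 2.40e-28). HERPUD1, a component of protein degradation at that membrane, went from 68.1, 63.0 and 66.6 CPM to 128, 122 and 128 CPM (0.94), and XBP1, the transcript that IRE1alpha splices, from 123, 126 and 123 CPM to 214, 204 and 222 CPM (0.78). These 3 genes and DNAJB9 (0.34) were the 4 that rose. The luminal chaperone HSPA5, which encodes BiP, went the other way, from 380, 374 and 359 CPM to 278, 260 and 268 CPM (-0.46), and HSP90B1 fell by 0.55.

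Genes of basic cell functions moved little. Of 73 cytosolic ribosomal protein genes 49 fell and none rose (median -0.11), of 50 oxidative phosphorylation genes 33 fell and none rose (-0.16), and of 25 cholesterol synthesis genes 12 fell and none rose (-0.07). Of 65 measured chromosome 19 zinc finger genes 37 rose and 3 fell (0.19). Small nucleolar RNA host genes rose more, with 13 of 20 higher and 4 lower (0.44): SNHG1 went from 63.3, 62.2 and 53.9 CPM to 125, 122 and 125 CPM (1.05 ± 0.04), ZFAS1 rose by 0.73, SNHG17 by 0.70 and GAS5 by 0.43. SNHG4, named after its value was seen, went the other way, from a mean of 0.873 CPM to 0.422 CPM (-1.09). It lost the call without DMSO replicate 2 or Lurbi replicate 1. The lists of RNA polymerase II elongation (6 of 37 higher, 11 lower), hypoxia and glycolysis (10 of 31 higher, 7 lower), autophagy (11 of 33 higher, 7 without DMSO replicate 2, and 4 lower), NRF2 targets (2 of 20 higher, 6 lower), ribosome biogenesis (4 of 37 higher, 11 lower, 7 without Lurbi replicate 3), and death receptors and caspases (4 of 11 higher, 1 lower) had medians between -0.07 and 0.11. Metallothioneins (1 of 7 higher, 0 without DMSO replicate 2 or 3, none lower), antigen presentation genes with NKG2D ligands (2 of 10 higher, 1 without Lurbi replicate 3, none lower), CDK inhibitors and cyclins (4 of 12 higher, 4 lower) and the ID and TGF-beta families (6 of 16 higher, 2 lower) had medians between -0.05 and 0.12. Single members of such lists moved further than the medians. Log2 fold changes ran from -0.98 to 0.96 in CDK inhibitors and cyclins and from -0.47 to 1.87 in the ID and TGF-beta families. They ran from -0.07 to 1.21 in antigen presentation genes with NKG2D ligands and from -0.22 to 1.56 in hypoxia and glycolysis. HEXIM1, an inhibitor of the elongation kinase P-TEFb, rose by 0.46.

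**Figure D4:**
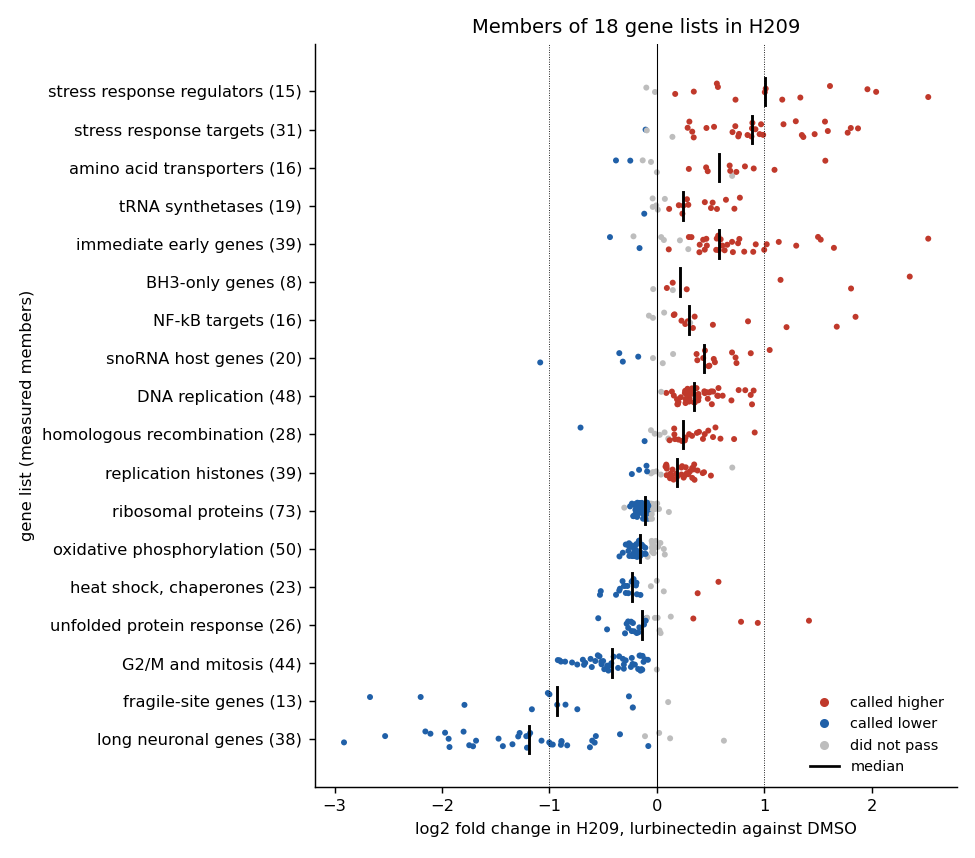
Log2 fold changes in H209 (x axis) of the measured members of 18 gene lists (y axis), coloured by call, with each list's median as a bar. Stress response regulators (median 1.00) and targets (0.89) lie highest, and long neuronal genes (-1.19) lie lowest.

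ISL1, by which the lines were classed, stood at 217, 221 and 207 CPM under DMSO and 174, 169 and 177 CPM under lurbinectedin, a fall with no overlap between groups (log2 -0.31 ± 0.03, adjusted p = 9.17e-11). MYCL, a MYC-family transcription factor, went from 747, 734 and 741 CPM to 625, 636 and 642 CPM (-0.22). Its groups did not overlap either. INSM1, a neuroendocrine repressor, rose by 0.17 (811, 764 and 888 CPM to 931, 944 and 895 CPM). SLFN11, a helicase-like protein tied to sensitivity to DNA-damaging drugs, rose by 0.21 (155, 154 and 143 CPM to 177, 173 and 174 CPM). DLL3, an inhibitory Notch ligand (-0.14, adjusted p = 0.00211), and NEUROD1 (-0.20, adjusted p = 0.0394) passed, and both lost the call with DESeq2, DLL3 also without DMSO replicate 3 (0.100), NEUROD1 also without DMSO replicate 2 or 3 or Lurbi replicate 2 or 3 (0.0622 to 0.276). Beside 22.7% of all genes higher and 22.5% lower, 3 of 24 lineage transcription factors rose and 8 fell (median -0.07), NKX2-1 by 0.35 on the log2 scale, and of 24 neuroendocrine granule and hormone genes 6 rose and 10 fell (-0.04).

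Values in H187, H82 and SHP-77 come from libraries that the choice of the H209 genes did not use and that share no control with them. Of the 121 raised genes 78 were listed in H187. There 44 of the 78 rose, where 12.2% of all genes rose, and 4 fell. Their median log2 fold change in H187 was 0.41, against 0.00 over all genes listed there; in H209, whose values chose them, it was 1.22. In SHP-77 7 of 89 rose (median 0.05; 1.98% of all genes rose), and in H82 2 of 65 (0.03; 1.55%). Of the lowered genes, 70 of 79 listed in H187 fell (median -0.92; 12.7% of all genes fell), 44 of 74 in SHP-77 (3.21%) and 24 of 67 in H82 (1.38%). Over the 13042 genes shared with H187 the log2 fold changes had a Pearson correlation of 0.616, over 12872 shared with SHP-77 0.30, and over 12405 shared with H82 0.236, each across genes, which are not independent.

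**Figure D5:**
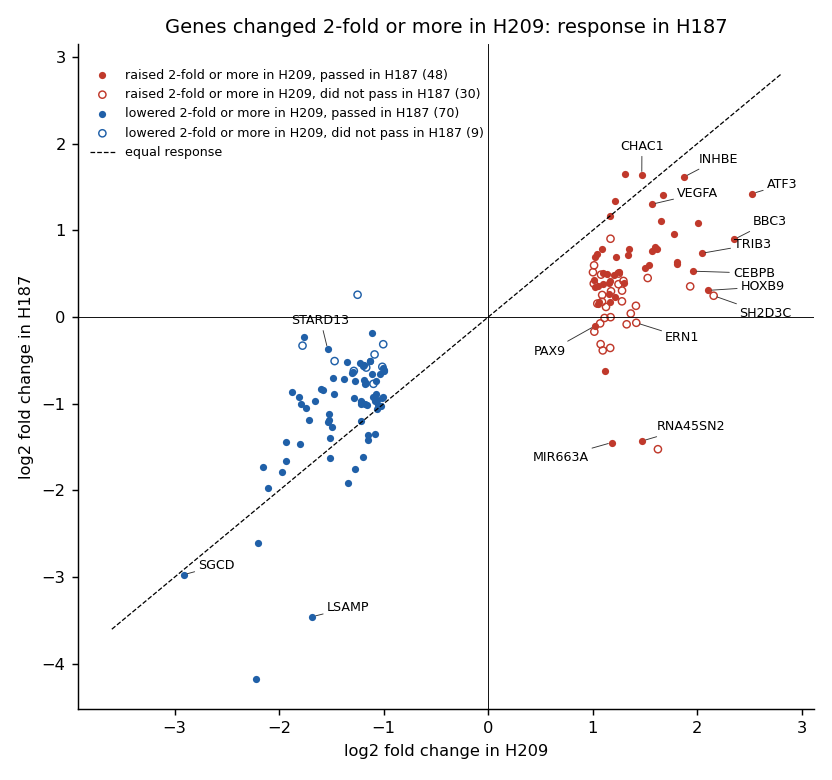
Log2 fold change in H187 (y axis) against that in H209 (x axis) for the genes changed 2-fold or more in H209 and listed in H187, filled where they passed in H187. The 78 raised genes, chosen by their H209 values, have a median of 0.41 in H187, where 44 of them rose.

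The difference between the 2 ISL1-high lines was tested gene by gene. Of 13042 genes, 774 (5.93%) responded more positively in H209 and 577 (4.42%) more negatively. Of 14 stress response regulators tested 11 were above 0 in this difference and none below, and of 29 targets 19 were above and 1 below. Genes named here and in the next paragraph for their change in H209 were chosen by values that enter the difference. That choice favours a larger response in H209. ATF3 rose by 1.42 in H187, which was 1.11 less than in H209 (adjusted p = 1.16e-11), and TRIB3 by 0.73, a difference of 1.31 (6.38e-13). CEBPB rose by 0.53 there, a difference of 1.44 (6.46e-11). ERN1 (-0.07) did not pass in H187, and the difference of 1.49 did (9.42e-14). ATF4 was at 0.02 in H187, with a difference of 0.55 (1.27e-06). PHGDH was the target that went the other way, with a rise of 1.66 in H187 against 0.73 in H209 (difference -0.93, 1.92e-12). CHAC1 (1.64 in H187), INHBE (1.61) and VEGFA (1.30) gave differences of -0.17, 0.26 and 0.27, none past the threshold (adjusted p = 0.455, 0.274 and 0.213).

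Other groups differed less evenly. The BH3-only genes BBC3 and HRK rose in H187 by 0.90 and 0.63, differences of 1.46 and 1.18 (adjusted p = 4.20e-06 and 6.03e-07). CDKN1A rose by 0.19 there, a difference of 0.78. Of 39 histone genes 17 were above 0 in the difference and none below, and of 20 small nucleolar RNA host genes 10 were above and 1 below. Of 48 replication genes 7 were above and 3 below, and 45 rose in H187 too. Of 44 mitotic genes 13 were below 0 and 1 above, and 36 fell in H187. Of 33 long neuronal genes 8 were above and 10 below, and 32 fell in H187. LSAMP, an adhesion gene, fell further in H187 (-3.46) than in H209 (difference 1.77, adjusted p = 0.000117). In H82 none of the 14 stress regulators measured rose or fell, nor did any of 15 in SHP-77, and the difference from H209 passed in 12 of 14 (above 0) and in 12 of 15 (11 above, 1 below). The background for differences above 0 was 13.9% against H82 and 14.3% against SHP-77.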

How the data were processed

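RNA of 4 small-cell lung cancer lines was extracted with the RNeasy Plus kit; 100 ng of it per sample was depleted of ribosomal RNA (Ribo-Zero Plus) and made into stranded Illumina libraries, per the labels' protocols. The submitters' processing notes name hg38, edgeR 4.2.0, Subread 2.0.3, featureCounts and STAR 2.7.10a; annotation, strand setting and low-count filter are not given in the sources used here. The deposited table of each line holds raw counts per gene and library, with exon positions and length. It also gives the authors' log2 fold change, FDR and p-value, used here as an alternative. In H209 no listed gene had a row sum under 69, so low rows were not in the deposited table.

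Counts were fitted in R 4.3.3 with edgeR 4.0.16 (filterByExpr with minimum count 10 and minimum total 15, TMM, glmQLFit, glmQLFTest), each line alone on its 6 libraries, with Benjamini-Hochberg adjustment over all genes of the table and a threshold of 0.05. Differences between lines were tested in 1 fit of 12 libraries over the genes listed in both tables. CPM are on TMM-scaled library sizes. Span runs from the first to the last exon; 228 genes at several loci or over 2500 kb were left out of counts by span. Gene types and promoters come from RefSeq and GC content from GENCODE transcripts matched by symbol (13937 genes, 96.6%). The fitting steps were tested on simulated data.

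Named genes are the 20 largest rises and 15 largest falls of protein-coding genes that passed, averaged at least 1 on the log2 CPM scale and separated the groups fully, raised genes whose function is described, up to 5 members with the smallest p of each of 48 gene lists (lists of 8 or fewer: also members that did not pass), a panel of 8 genes, and, for promoter motifs, those of the largest changes and of the stress response lists. Some genes that meet this rule are not reported here. Other members are named as chosen after their values were seen, as are genes just outside the 2-fold limit. Members, gene lists and alternatives were chosen with earlier results of these data known, so list counts are descriptions and no list was tested. Replicate numbers 1 to 3 recur in every group, but the labels tie them to nothing shared.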

Additional observations from a re-analysis of the deposited data

Results flagged for a closer look

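For 27 genes, taken from the largest rises and falls, the panel and the raised genes that fell in H187, the response in H209 differed from that in H187 by a test of the difference itself (edgeR quasi-likelihood, adjusted p under 0.05, 12 libraries). The largest rises and falls were chosen by H209 values, which also enter this difference, so the choice favours a larger response in H209. The raised genes that fell in H187 were chosen by both lines, which sets the sign of their difference. Among the largest rises, the H209 response exceeded the H187 response, in log2 units, for SH2D3C (1.92), HOXB9 (1.80), BBC3 (1.46), CEBPB (1.44), TRIB3 (1.31), ADM2 (1.20), HRK (1.18), ATF3 (1.11), FOSB (1.08), TSC22D3 (0.95), ARC (0.94), BEST1 (0.93), DDIT3 (0.83), SESN2 (0.82), SLC6A9 (0.81), STC2 (0.79) and GADD45B (0.54). Of the 20 largest rises, INHBE and VEGFA did not differ past the threshold and LURAP1L was not listed in H187.

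Among the largest falls, the difference was 1.77 for LSAMP, which fell further in H187, and -0.76 for SLC39A11 and -1.16 for STARD13, which fell further in H209. The falls of SGCD, LINGO2, PARD3B, PTPRG, NPAS3, GPC6, CALN1, CPQ, CADM2, LHFPL3 and MSRA did not differ past the threshold. ERBB4 was not listed in H187. In the panel it was 0.39 for INSM1, which rose in H209 and fell in H187, -0.25 for SLFN11, which rose more in H187, and -0.17 for MYCL.

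In 4 of the 121 raised genes H187 moved the other way. PAX9 rose by 1.02 in H209 and fell by 0.10 on the log2 scale in H187 (difference 1.13, adjusted p = 2.33e-14). The non-coding THCAT155 was at 1.11 and -0.63 (difference 1.74). RNA45SN2 and MIR663A, which lie at several loci, were at 1.47 and -1.43 and at 1.18 and -1.45 (differences 2.92 and 2.64, adjusted p = 0.00731 and 0.00142). DMSO replicate 3 of H209 stood apart for RNA45SN2, at 131 CPM against 27.2 and 21.1, and its part in the difference was not tested.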

How the results depend on the processing

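The count of changed genes in H209 stayed between 5098 (all 24 libraries in 1 fit) and 6598 (GC correction), against 6513; DESeq2 gave 5495, and 6507 passed in the authors' deposited table. Leaving out each H209 library gave 5733 to 6033. The raised and lowered 2-fold sets were smaller where fewer genes were tested, at 49 and 47 in the fit of all 24 libraries, to which 51 of the 121 raised genes belong. They were also smaller where the test itself asked for more than 2-fold (glmTreat), at 39 and 25. Leaving out each library gave 123 to 140 raised and 104 to 129 lowered genes. The ratio of calls to H187 ran from 1.45 (all 24 libraries) to 2.71 (without an H187 library). Same-numbered libraries did not deviate together (correlations -0.009, -0.011 and -0.035). With replicate number as a block the counts were 6438 changed, 120 raised and 107 lowered genes, a ratio of 2.25, and differences of 1088 (H187), 3401 (H82) and 3471 (SHP-77). Of 4439 values of 305 single genes under alternatives, 4390 kept direction and side of the threshold, 49 lost the call and none reversed. Of 705 values of 47 list counts 21 moved by over 1.5 times: 11 on leaving out a library, 1 with DESeq2 and 9 in the fit of all 24 libraries. In that fit 15 long neuronal genes and 7 ion channels were lower, 4 lineage factors lower, and 0 HOX, 2 interferon-stimulated, 1 antigen presentation and 2 CDK inhibitor or cyclin genes higher. It holds only genes among the 11408 shared by all 4 lines, so list members missing from any line were not tested there. Of the 30 HOX genes measured in H209, for example, 11 were listed in H82. Depth limits the 50 raised genes under 1 CPM in DMSO, where 1 CPM is 24 to 31 reads. The GC correction and, for the ratio, the left-out H187 libraries were chosen after seeing the data.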
